A study of Mus musculus with 12 samples.

Results

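TRAC, TRBC1 and TRBC2, the constant genes of the T cell receptor alpha and beta chains, were followed through the productive receptor contigs of brain and meningeal immune cells of mice. A contig is a receptor chain sequence assembled from the reads of 1 cell, and it is productive when it can be read through as a full receptor chain. All 13739 productive contigs among the 19419 contigs of the 6 receptor libraries were taken and sorted by the constant gene that the deposited annotation names. TRAC was named in 6446 of them, TRBC1 in 2666 and TRBC2 in 4563, and 64 had no constant gene.

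The receptors came from sorted CD45+ leukocytes of C57BL/6 mice, and the study asked how brain T cells relate to Alzheimer's disease-like pathology. Mice labelled 5xFADTg carry transgenes for mutant human forms of amyloid precursor protein and presenilin, driven by the neuronal Thy1 promoter, and NonTg mice lack them. There were 4 libraries from brain parenchyma, 2 NonTg and 2 5xFADTg, and 2 from the meninges that wrap the brain, 1 of each genotype. No age or treatment was given in the labels, and no animal was named, so p-values over libraries measure the spread between these libraries, which may be technical. The libraries held between 15827899 and 26710709 reads over all listed contigs, and between 425 and 2122 cells with a productive chain. The 15 pairs of libraries shared 0 to 4 cell barcodes each.

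Each T cell receptor chain joins a variable region, which meets antigen, to a constant region that anchors the chain in the membrane and docks with the CD3 signalling proteins. Alpha chains (TRA) have a single constant gene, TRAC. Beta chains (TRB) have a pair, TRBC1 and TRBC2, each lying behind its own D segment and its own cluster of J segments. Splicing joins the rearranged J segment to the constant gene that follows, so J segments of the first cluster normally lead into TRBC1 and those of the second cluster into TRBC2. In the receptor kit, every transcript receives a barcode of its cell and a molecular tag of its own (unique molecular identifier, UMI), and receptor cDNA is then amplified with primers that lie in the constant genes. A UMI count estimates captured transcripts, whereas a read count also holds the copies made by PCR.

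TRBJ1-1 (chr6:41533864-41533911) and TRBJ2-7 (chr6:41543810-41543856) were the most used J segments of the 2 clusters here, and they are shown because each stands for the cluster that was read together with a constant gene. The sequences are those of GENCODE M21 on GRCm38, 5′ to 3′ on the forward strand.
TRBJ1-1: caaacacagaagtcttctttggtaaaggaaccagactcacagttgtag
TRBJ2-7: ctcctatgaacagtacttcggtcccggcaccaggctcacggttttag
The first 120 bases of TRAC (chr14:54220521-54220640) stand for the alpha constant gene.
TRAC: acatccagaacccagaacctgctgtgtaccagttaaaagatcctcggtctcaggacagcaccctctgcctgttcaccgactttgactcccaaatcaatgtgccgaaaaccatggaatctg

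Nearly every productive contig carried a constant gene, and no other constant gene was found. TRAC was named in 99.4% of 6482 productive TRA contigs (95% exact binomial interval 99.2 to 99.6%). By library its share lay between 99.1% (5xFADTg parenchyma 2) and 100% (5xFADTg meninges 1, 429 of 429). Of 7257 productive TRB contigs, 36.7% had TRBC1 (35.6 to 37.9%), 62.9% had TRBC2 (61.8 to 64.0%) and 28 had none. Contigs of TRBC2 outnumbered those of TRBC1 in each of the 6 libraries. NonTg parenchyma 1 held 492 contigs of TRBC1 and 983 of TRBC2, and NonTg parenchyma 2 held 256 and 763. The numbers were 729 and 926 in 5xFADTg parenchyma 1 and 870 and 1302 in 5xFADTg parenchyma 2. The meningeal libraries held 150 and 278 (NonTg) and 169 and 311 (5xFADTg). The 17 other constant genes looked for, those of gamma, delta and immunoglobulin chains, were named in 0 contigs. Because the kit amplifies only alpha and beta chains, this says nothing about gamma-delta T cells or B cells in the sort. Intervals and zero-count limits cover counting error only.

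The beta constant gene followed the J cluster without exception. Of the 7229 productive TRB contigs with a constant gene, 7229 paired a TRBJ1 segment with TRBC1 or a TRBJ2 segment with TRBC2. No contig crossed the clusters, which allows a crossing share of up to 0.0415%. The same held for 3583 of 3583 nonproductive TRB contigs with both genes named. Within the first cluster TRBC1 was reached most often from TRBJ1-1 (1118 contigs), then from TRBJ1-2 (487) and TRBJ1-4 (421), and least from TRBJ1-6 (167). Within the second, TRBC2 was reached from TRBJ2-7 in 1372 contigs, from TRBJ2-1 in 943, and from TRBJ2-2 in 398. Where a D segment was named, TRBJ1 contigs had TRBD1 in 156 cases and TRBD2, which lies downstream of that cluster, in 0. TRBJ2 contigs had TRBD1 in 92 cases and TRBD2 in 64. Most contigs had no D segment named, 2536 of TRBJ1 and 4409 of TRBJ2.

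**Figure D1:**
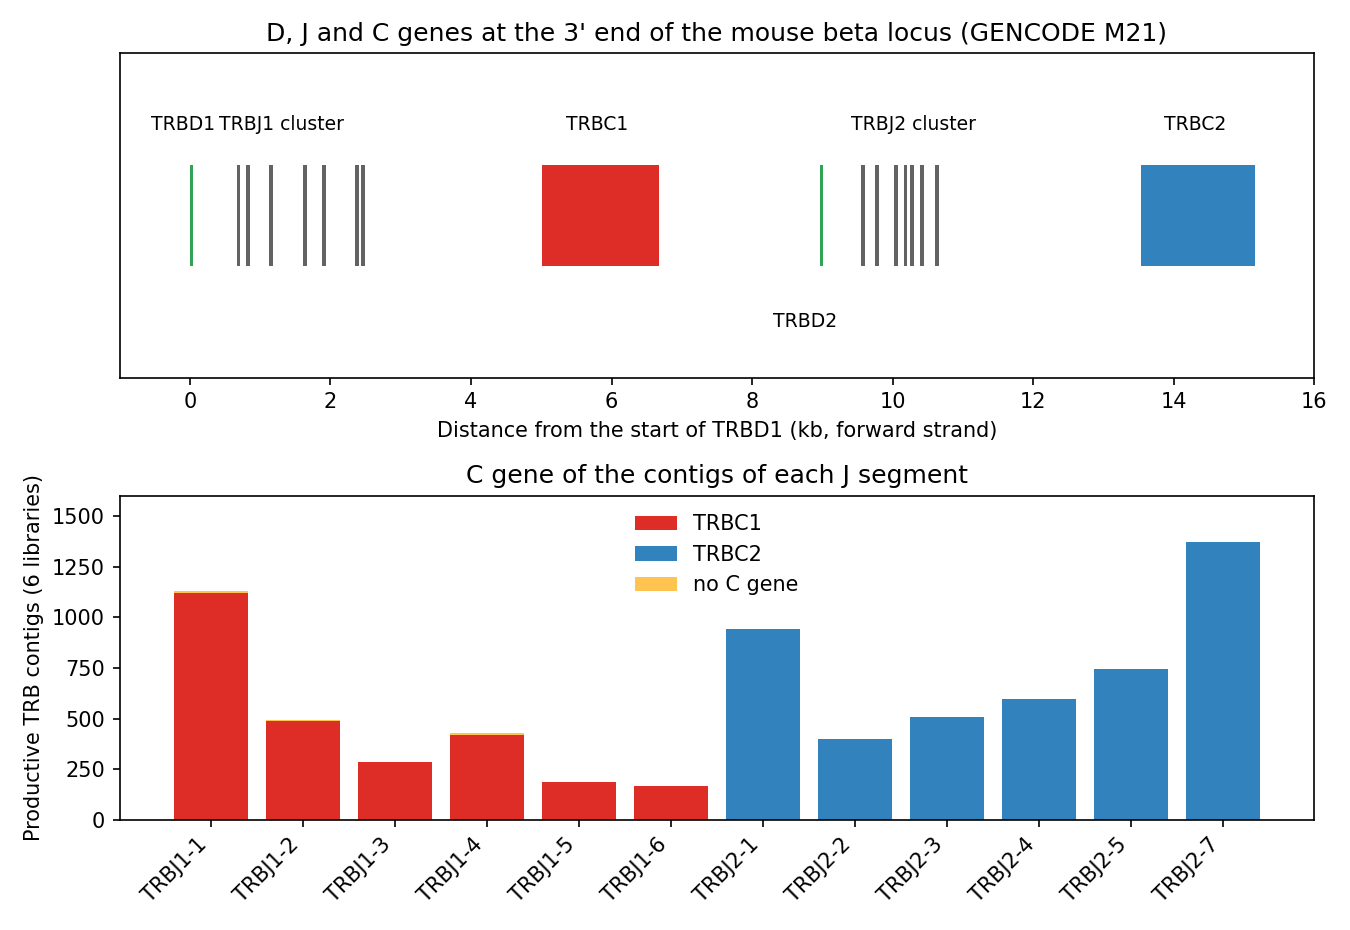
The upper panel places the D segments (green), J segments (grey) and constant genes of the 3′ end of the beta locus by distance from TRBD1 in kb, and the lower panel counts productive TRB contigs of the 6 libraries by J segment, coloured by constant gene. Bars of TRBJ1 segments hold TRBC1 and bars of TRBJ2 segments hold TRBC2, with TRBJ2-7 (1372) and TRBJ1-1 (1118) the highest of each cluster and the contigs without a constant gene a thin cap, mostly on TRBJ1 bars.

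TRBC1 and TRBC2 are known to be closely similar genes, so how far a contig reaches into the constant gene bears on that agreement. An upper bound on its constant bases was taken as the contig length minus the V region, the CDR3 loop and the rest of the J segment. Any bases before the V region are counted in this bound, so the true reach can be shorter. It could be computed for 96.0% of the 7229 contigs, and its median was 112 bases (quartiles 98 and 134). In 145 contigs (2.09%) the bound fell below 0, which happens when a contig starts inside the V region, and for those it is not valid. Other contigs that start there have too low a bound that stays above 0, and these were not counted. A further 18 nonproductive TRB contigs had a constant gene but no J segment, and of these 17 were named TRBC1 and 1 TRBC2. Whether the annotation software uses the J segment when it names the beta constant gene is not given in the sources used here, and was not tested.

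Contigs without a constant gene were rare, carried few UMIs and were short in the parenchyma. In TRB there were 2, 3, 8 and 13 of them in NonTg parenchyma 1 and 2 and 5xFADTg parenchyma 1 and 2, and 1 in each meningeal library. Their median length was 479.5 bases, against 560 for TRB contigs with a constant gene, although the single ones of NonTg and 5xFADTg meninges had 632 and 578 bases. The median by parenchymal library lay between 435.5 and 482, and the bound on their constant bases had a median of 32. None had more than 3 UMIs. In mean log2 UMIs they lay 2.12 ± 0.232 below contigs with TRBC1 or TRBC2 (SD, n = 6 libraries), at 0.84 against 2.95, and were lower in 6 of 6 libraries (two-sided exact sign-flip p = 0.0312, the smallest that 6 libraries allow; 0.0833 after Benjamini-Hochberg adjustment over the 8 comparisons made within libraries). Of the 8 comparisons, 3 reached that smallest p, and none passed 0.05 after adjustment. The 36 TRA contigs without TRAC had at most 2 UMIs and a median length of 474.5 bases against 553. The 5 libraries that held such contigs gave a mean log2 difference of -4.44 ± 0.358 (SD, n = 5; exact sign-flip p = 0.0625, the smallest for 5 libraries; adjusted 0.1).

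Of the 28 TRB contigs without a constant gene, 26 carried a TRBJ1 segment, out of 2692 TRBJ1 and 4565 TRBJ2 contigs. Among TRBJ1 contigs the share without a constant gene was 0.405% in NonTg parenchyma 1, 1.16% in NonTg parenchyma 2, 1.09% in 5xFADTg parenchyma 1 and 1.25% in 5xFADTg parenchyma 2. It was 0.662% in NonTg meninges and 0.588% in 5xFADTg meninges. Among TRBJ2 contigs the share was 0.153% in 5xFADTg parenchyma 2 (2 of 1304) and 0 in the other 5 libraries, where the contig numbers allow up to 0.305% (NonTg parenchyma 1) to 1.08% (NonTg meninges). In the meningeal libraries the TRBJ1 share rests on 1 contig and lies below the limit for TRBJ2 (1.08 and 0.965%), so no difference can be read there. The mean difference over libraries was 0.832 ± 0.320 percentage points (SD, n = 6). The split by J cluster was made after its values were seen and was not tested. The contigs were not all separate cases: in 5xFADTg parenchyma 2, 4 had 1 CDR3 in common and 2 another, and in 5xFADTg parenchyma 1, 2 shared a CDR3. An alternative added after seeing the data counted each CDR3 nucleotide sequence once per library, as lacking a constant gene when any of its contigs lacked one. The mean difference was then 1.29 points. A CDR3 with many contigs meets that rule more easily, so 1.29 cannot be set directly against 0.832.

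TRBC1 was carried by about the same share of clonotypes in every library, while its share of cells varied more. A clonotype is a pair of TRA and TRB CDR3 nucleotide sequences, counted once per library. Cells with a single TRB and 1 or more TRA entered. By clonotype, TRBC1 took 32.8% (exact binomial interval 29.1 to 36.7%) in NonTg parenchyma 1, 34.0% (29.6 to 38.6%) in NonTg parenchyma 2 and 33.7% (30.1 to 37.5%) in 5xFADTg parenchyma 1. It took 36.5% (33.1 to 40.0%) in 5xFADTg parenchyma 2, 32.3% (26.9 to 38.0%) in NonTg meninges and 37.2% (32.0 to 42.7%) in 5xFADTg meninges. These intervals overlap in each pair of libraries. By cell, the share was 24.3% (21.3 to 27.5%) in NonTg parenchyma 2 and 43.7% (40.9 to 46.6%) in 5xFADTg parenchyma 1, with the other 4 libraries between 33.1 and 38.7%. In NonTg parenchyma 2 the largest clonotypes, of 94 and 66 cells, both used TRBC2, and in 5xFADTg parenchyma 1 those of 71 and 64 cells both used TRBC1. Cells of a clone share their rearrangement, so their shares of cells are not independent counts.

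In the TRBC1 share of clonotypes, the libraries of the genotypes overlapped, and so did those of the tissues. The 5xFADTg parenchyma libraries averaged 35.1% ± 1.95 and the NonTg ones 33.4% ± 0.825 (SD, n = 2 for both), so that the groups, 1.69 points apart, overlapped (two-sided exact permutation p = 0.667, smallest possible 0.333; adjusted 0.667 over 5 comparisons). Counted by cell, the genotypes were 12.5 points apart (exact permutation p = 0.333). The 2 meningeal libraries had 34.8% ± 3.50 and the 4 parenchymal ones 34.3% ± 1.56, 0.487 points apart (exact permutation p = 0.933, smallest possible 0.133). Expanded clonotypes, those of 2 or more cells, had TRBC1 less often than 1-cell clonotypes in 4 of 6 libraries. The difference ran from -15.9 points in 5xFADTg meninges, where 4 of 18 expanded clonotypes had TRBC1, to 2.48 points in 5xFADTg parenchyma 1. Its mean was -4.72 ± 6.66 points (SD, n = 6; exact sign-flip p = 0.188; adjusted 0.375 over 4 comparisons). With expansion set at 5 or more cells the mean became 7.47 points (exact sign-flip p = 0.438), so the direction was not stable. Of 21 TRBV segments with at least 10 clonotypes, those whose clonotype share followed that of TRBC1 most closely over the 6 libraries were TRBV1 (Pearson r 0.649, 152 clonotypes) and TRBV26 (r 0.627, 105 clonotypes). These correlations are descriptions over 6 points of unequal depth.

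TRA had more UMIs than TRB, but TRB took most of the reads. Whether a UMI stands for a captured transcript equally well in both chains was not tested. The measure was taken in the 4743 cells with exactly 1 productive TRA and 1 productive TRB, called paired cells below, so that each cell served as its own reference. TRA had a median of 48, 58, 50 and 34 UMIs per cell in NonTg parenchyma 1 and 2 and 5xFADTg parenchyma 1 and 2, and of 71 and 50 in NonTg and 5xFADTg meninges. TRB had a median of 8 UMIs in each parenchymal library and of 9 in each meningeal one. The mean log2 difference, TRA minus TRB, was 2.08, 2.08, 1.91 and 1.40 in the parenchymal libraries in the same order, and 2.01 and 1.99 in the meningeal ones. TRA was higher in 6 of 6, with a mean of 1.91 ± 0.260 (SD, n = 6), which is 3.76-fold (exact sign-flip p = 0.0312, adjusted 0.0833). 5xFADTg parenchyma 2 stood below the other 5, which lay between 1.91 and 2.08. The mean does not describe each cell: TRA UMIs exceeded TRB UMIs in 75.6% of the paired cells, with a median ratio of 5.04.

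Counted in reads, the order of the chains turned around. TRA minus TRB in mean log2 reads was -1.23, -1.27, -1.28 and -1.41 in the parenchymal libraries and -1.32 and -1.66 in the meningeal ones. The mean was -1.36 ± 0.159 (SD, n = 6; exact sign-flip p = 0.0312). Over all productive contigs, TRAC held 83.8% of the UMIs and 27.3% of the reads, TRBC1 5.73% and 25.2%, and TRBC2 10.4% and 47.4%. A TRB UMI was therefore read far more often than a TRA UMI: log2 reads per UMI averaged 10.33 for TRB and 7.05 for TRA, a difference of -3.27 ± 0.277 (SD, n = 6; lower for TRA in 6 of 6; exact sign-flip p = 0.0312, adjusted 0.0833). Median reads per TRB UMI ran from 661 in 5xFADTg parenchyma 2 to 3289 in NonTg meninges, and median reads per TRA UMI from 67.8 in NonTg parenchyma 1 to 195 in NonTg meninges.

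By class of UMIs, TRA counts showed a dip between 2 ranges in every library, shallow in 5xFADTg parenchyma 2, and TRB counts did not. The classes of 1, 2, 3 to 4 and 5 to 8 TRA UMIs held 147, 239, 390 and 457 paired cells, 1233 in all. Those of 9 to 16 and 17 to 32 held 291 and 420. Those of 33 to 64, 65 to 128 and over 128 held 1136, 1189 and 474, 2799 in all. In 5xFADTg parenchyma 2 there were 124 cells at 5 to 8 UMIs, 104 at 9 to 16 and 167 at 17 to 32. The share of cells with at most 16 TRA UMIs was 28.3% in NonTg parenchyma 1, 32.6% in NonTg parenchyma 2, 29.5% in 5xFADTg parenchyma 1 and 36.2% in 5xFADTg parenchyma 2. It was 36.9% in NonTg meninges and 30.5% in 5xFADTg meninges. More than 128 TRA UMIs were found in 34.6% of the cells of NonTg meninges and in 2.49% of those of 5xFADTg parenchyma 2. TRB counts had a single range, with 5 to 16 UMIs in 1471 and 1657 cells (5 to 8 and 9 to 16).

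**Figure D2:**
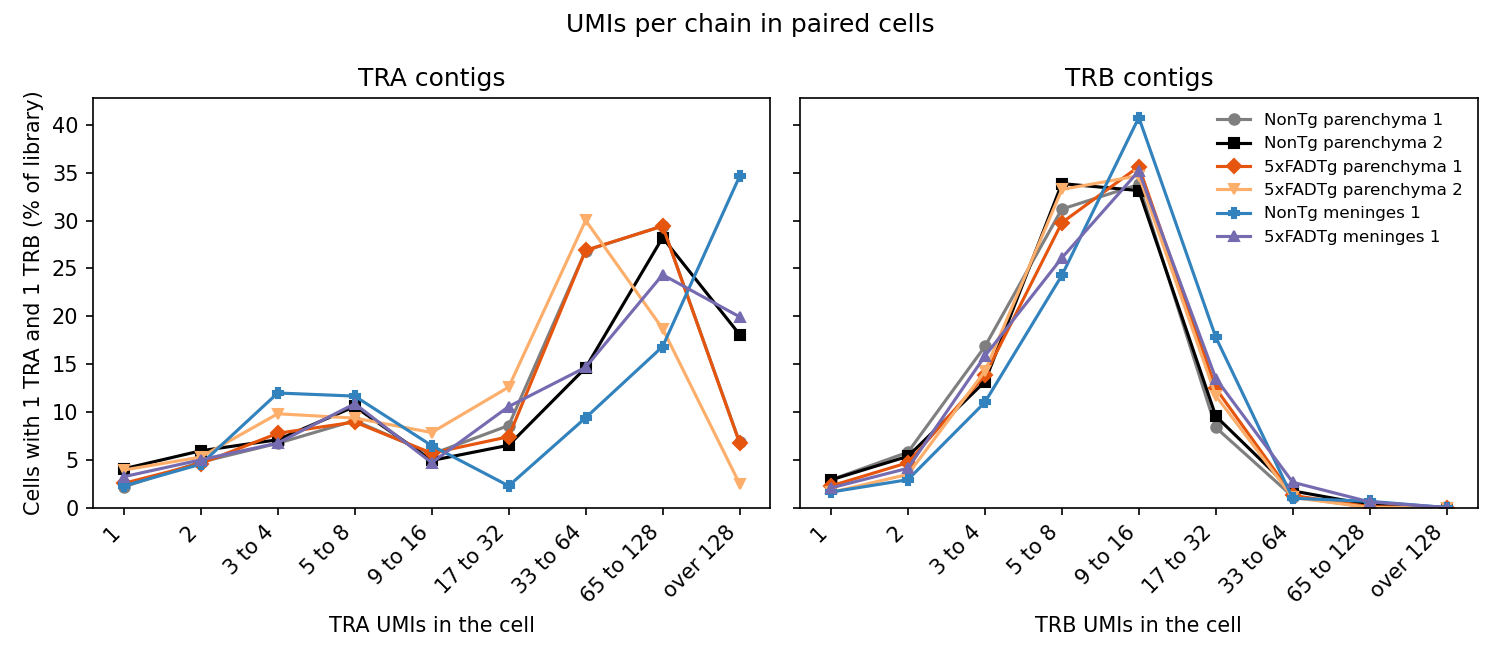
Share of paired cells of each library (y axis, percent) by class of UMIs per cell (x axis), for TRA on the left and TRB on the right, with 1 line per library. In TRA the lines peak below 16 and again above 32 UMIs, with 34.6% of NonTg meninges cells over 128, and in TRB they have a single peak at 5 to 16.

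The low TRA range differed from the high one in reads per UMI far more than in reads. Cells with at most 8 TRA UMIs had a median of 4 UMIs, 2624 TRA reads and 797.5 reads per TRA UMI. Cells with more than 32 had a median of 73 UMIs, 3443 reads and 44.5 reads per UMI. Reads per UMI were thus 17.9-fold higher in the low range, and by library the ratio was 20.2 and 26.3 in NonTg parenchyma 1 and 2, 17.4 in 5xFADTg parenchyma 1, and 31.9 and 31.8 in NonTg and 5xFADTg meninges. In 5xFADTg parenchyma 2 the values were 528 in the low range and 35.3 in the high one, the smallest ratio of the 6. The same cells hardly differed in their beta chain, with medians of 8 and 9 TRB UMIs and of 977 and 1051 reads per TRB UMI. TRA contig length was 551 bases in the low range and 553 in the high one. The 797.5 reads per TRA UMI of low-range cells lay near the 977 of their own TRB UMIs, and the 44.5 of high-range cells far below their 1051. The ranges were set after the counts were seen, and reads per UMI contain the UMI count, so these values are a description with no test.

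**Figure D3:**
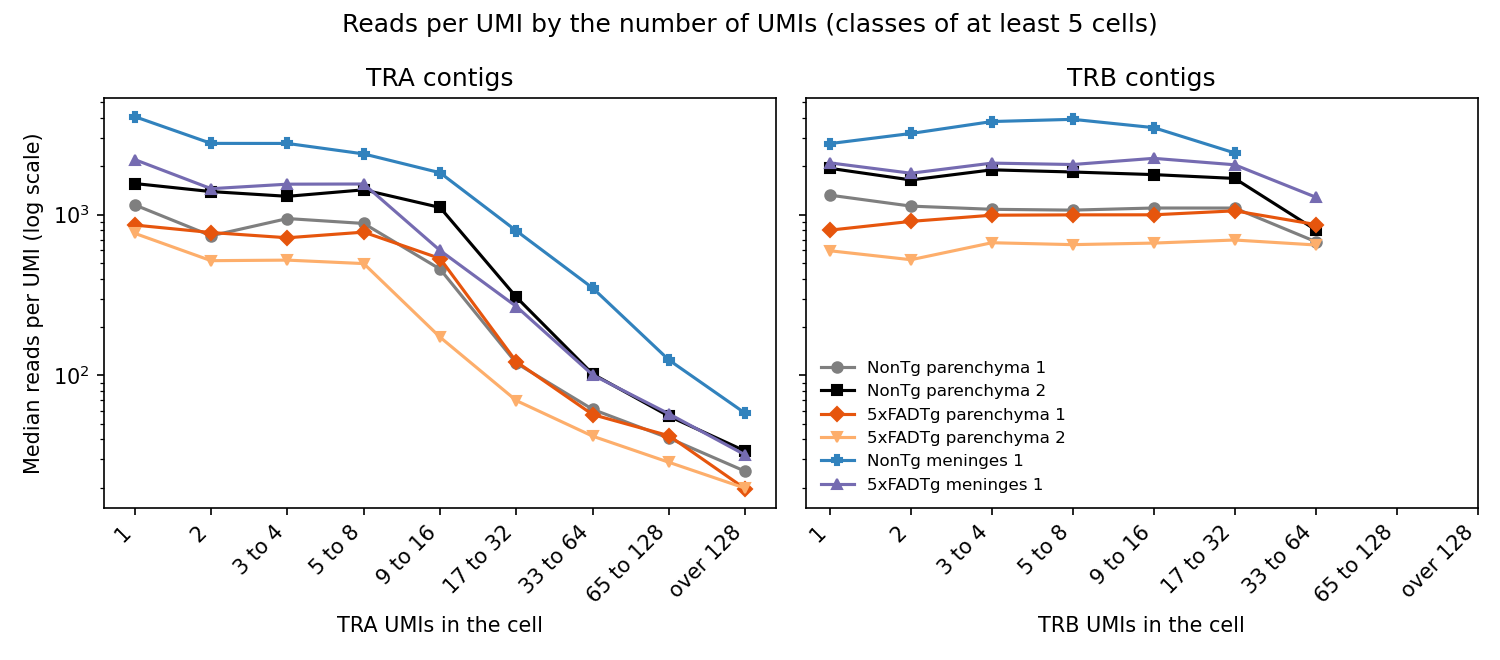
Median reads per UMI (y axis, log scale) by class of UMIs per cell (x axis) in paired cells, TRA on the left and TRB on the right, with 1 line per library and classes of at least 5 cells. Up to 8 UMIs the TRA medians of a library differ by at most 1.71-fold, and over 128 they have fallen to between 19.7 and 58.0 reads per UMI. TRB medians up to 32 UMIs differ by at most 1.33-fold in 5 libraries and by 1.62-fold in NonTg meninges, where they go from 3916 at 5 to 8 UMIs to 2419 at 17 to 32.

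TRA and TRB counts of the same cell were weakly correlated. The Pearson correlation of log2 TRA and log2 TRB UMIs across cells lay between 0.036 in 5xFADTg parenchyma 1 (1108 cells) and 0.196 in 5xFADTg meninges (341 cells), with cells of a clone sharing their receptor. The share of cells with at most 16 TRA UMIs was 30.1% among cells above the upper quartile of TRB UMIs and 34.9% among those up to the lower quartile. It was higher below the lower quartile in 5 of 6 libraries, with 5xFADTg parenchyma 1 (29.8% below and 30.3% above) the exception. In the 464 cells with 2 productive TRA and 1 TRB contigs, the TRA with more UMIs had a median of 52 and the lesser one a median of 4. The lesser TRA exceeded 16 UMIs in 3 of the 464.

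By beta constant gene, TRB counts differed little and TRA counts differed in both directions. Among all cells with 1 productive TRB, log2 TRB UMIs of TRBC1 minus TRBC2 cells were -0.04, -0.03, 0.01 and -0.14 in the parenchymal libraries and -0.28 and -0.06 in NonTg and 5xFADTg meninges. The mean was -0.09 ± 0.105 (SD, n = 6), lower for TRBC1 in 5 of 6 libraries (exact sign-flip p = 0.0625, adjusted 0.1), and -0.05 without NonTg meninges. With 1-UMI contigs left out, the difference was -0.09 as before and lower in each library (exact sign-flip p = 0.0312). TRA UMIs of the same paired cells, whose gene lies on another chromosome, gave -0.01 ± 0.432 (exact sign-flip p = 0.969; n = 6). There, single libraries moved further apart, from -0.68 in NonTg meninges to 0.39 in 5xFADTg meninges, and the sign of the mean turned without 5xFADTg parenchyma 2 (0.07) or without NonTg meninges (0.12).

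Cells in which only 1 chain was found had somewhat fewer UMIs of it at the median. The 1188 cells with a single TRB and no productive TRA had a median of 7 TRB UMIs, against 8 in paired cells. Their mean log2 difference was -0.12 ± 0.146 (SD, n = 6; lower in 4 of 6; exact sign-flip p = 0.125, adjusted 0.167), and -0.08 without 5xFADTg meninges. The 202 cells with a single TRA and no TRB had a median of 35 TRA UMIs against 45, but over libraries the mean log2 difference was 0.00 ± 0.742 (n = 6; exact sign-flip p = 1), with a range from -0.69 in NonTg meninges (15 such cells) to 1.38 in 5xFADTg meninges (8 such cells). No cell of either kind rested on 1 UMI, whereas 106 paired cells (2.23%) had 1 TRB UMI and 147 (3.10%) had 1 TRA UMI. With paired cells limited to at least 2 UMIs in the chain used, the TRB difference was -0.19, lower in each library (exact sign-flip p = 0.0312; n = 6). How the deposited contig lists treat cells with 1 UMI in 1 chain is not given in the sources used here.

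**Figure D4:**
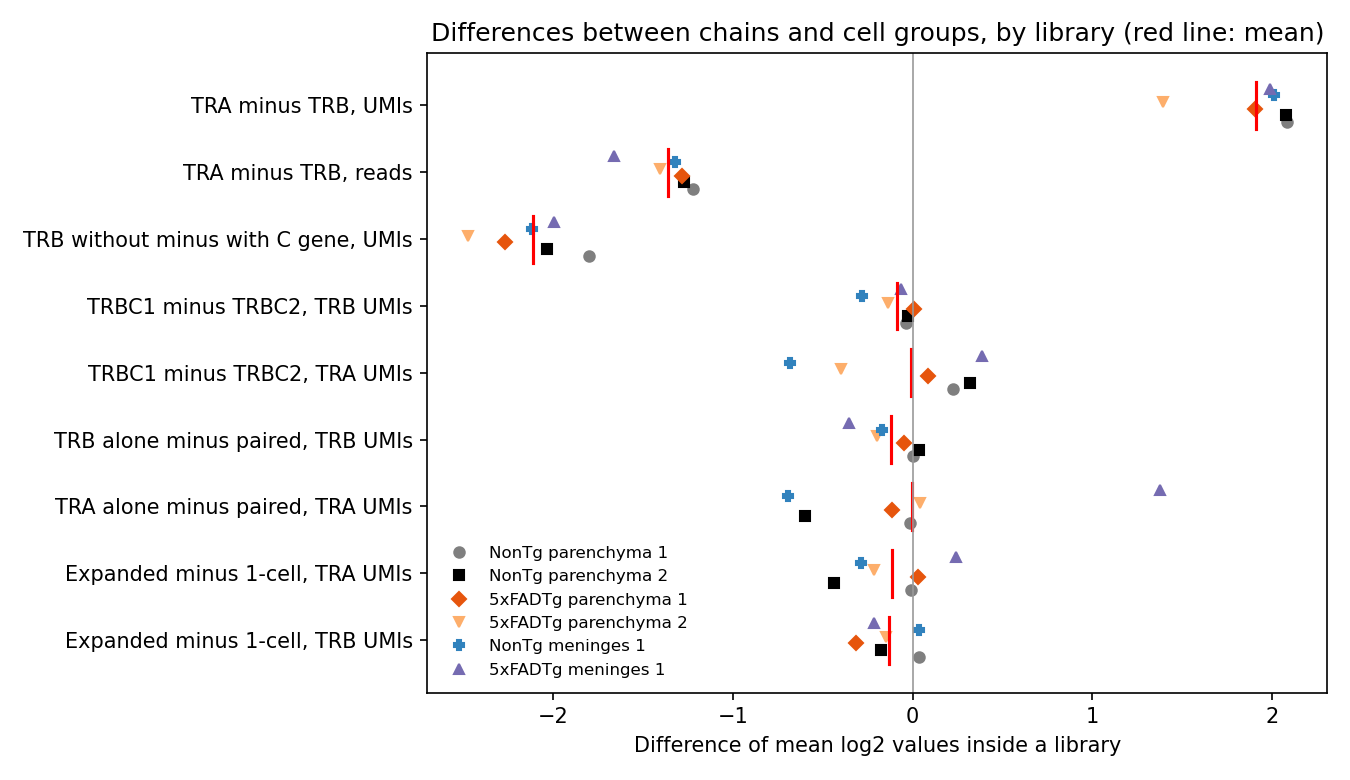
Differences of mean log2 values within each library (x axis), 1 symbol per library and a red line for the mean over libraries, for the comparisons named on the y axis. TRA minus TRB lies near 2 in UMIs, except for 5xFADTg parenchyma 2 (1.40), and near -1.36 in reads, while differences by beta constant gene, missing partner chain and expansion scatter around 0.

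Expansion of a clone was not accompanied by a clear change in UMI counts. Over the libraries, 1-cell clonotypes (2395 paired cells) had medians of 46 TRA and 9 TRB UMIs. Clonotypes of 2 to 4 cells (716 cells) had 47 and 8, those of 5 to 9 cells (301) 42 and 7, and those of 10 or more cells (1331) 43 and 8. Expanded minus 1-cell log2 TRB UMIs were 0.03, -0.18, -0.32 and -0.15 in the parenchymal libraries and 0.04 and -0.22 in the meningeal ones. Their mean was -0.13 ± 0.141 (SD, n = 6; lower in 4 of 6; exact sign-flip p = 0.125, adjusted 0.375). With each clonotype counted once, the mean was -0.15 and lower in each library (exact sign-flip p = 0.0312). For TRA the mean was -0.11 ± 0.247 (lower in 4 of 6; exact sign-flip p = 0.344, n = 6) and for the TRA to TRB ratio 0.02 ± 0.319 (exact sign-flip p = 0.875, n = 6), which turned negative without 5xFADTg parenchyma 1 (-0.05) or 5xFADTg meninges (-0.07).

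TRA counts varied widely inside single clones, although all cells of a clone carry the same rearranged chains. Of 48 clones with at least 10 paired cells in a library, 47 held cells with at most 16 and cells with more than 16 TRA UMIs. The exception was a clone of NonTg parenchyma 1 (TRBV19 to TRBJ1-2, TRBC1), whose 13 cells had 33 to 145 TRA UMIs. Over all paired cells 32.1% had at most 16, and at that share most clones of this size would hold both kinds. The cut at 16 lies in the dip, so a clone with both kinds need not hold both ranges. A 13-cell clone of 5xFADTg parenchyma 2 (TRBV3 to TRBJ1-2) had 1 to 29 TRA UMIs. A 17-cell TRBV13-1 clone of NonTg parenchyma 2 had 11 to 269. The SD of the log2 TRA to TRB ratio within a clone had a median of 2.06, close to the 2.26 over all paired cells. The mean log2 ratio of a clone ran from -0.16 to 3.61 with a median of 2.02, and was above 0 in 46 of 48. Being of the same clone accounted for part of the variance of log2 UMIs in the 4 parenchymal libraries (intraclass correlation). For TRA the share was 0.0506, 0.306, 0.0445 and 0.128 in NonTg parenchyma 1 and 2 and 5xFADTg parenchyma 1 and 2. For TRB it was 0.288, 0.00146, 0.248 and 0.141 in the same order. NonTg parenchyma 2, with only 5 such clones, was the only library where the TRA share was above that of TRB.

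Clones at the extremes of the ratio carried either beta constant gene. In NonTg parenchyma 1 the mean log2 ratio was highest in the TRBV19, TRBC1 clone just named (3.22) and lowest in a TRBV1, TRBC2 clone of 29 cells (0.78). In NonTg parenchyma 2 it was highest in a TRBV20, TRBC2 clone of 10 cells (3.61). It was lowest there in the largest clone (0.91, 94 cells, TRBC2), of which 63.8% had at most 16 TRA UMIs. A TRBV2, TRBC2 clone with a median of 3 TRB UMIs was highest in 5xFADTg parenchyma 1 (3.46, 24 cells), and a TRBV20, TRBC2 clone with a median of 13 TRB UMIs lowest (0.01, 21 cells). In 5xFADTg parenchyma 2 a TRBV19, TRBC2 clone was highest (2.79, 28 cells) and a TRBV3, TRBC1 clone lowest (-0.16, 13 cells). A TRBV1, TRBC2 clone of 14 cells was the only one of at least 10 cells in the meninges (5xFADTg, 1.47).

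Most of the largest clonotypes held TRA counts on both sides of 16 UMIs, where 32.1% of all paired cells had 16 or fewer. Of the 17 with at least 2 paired cells among the 3 largest of each library, 15 had cells with at most 16 and cells with more than 16 TRA UMIs. The exceptions were meningeal clones of 5 and 4 cells, a TRAV8N-2 clone in NonTg (4 to 9 TRA UMIs) and a TRAV3D-3 clone in 5xFADTg (125 to 364). The 94-cell clone of NonTg parenchyma 2 (TRAV8N-2, TRBC2) had 1 to 284 TRA UMIs per cell with a median of 8, whereas the 66-cell clone of that library (TRAV6-5, TRBC2) had 1 to 227 with a median of 82. The third there (TRAV15D-1-DV6D-1, TRBC2) had 22 cells, of which 8 had a single TRA (median 54.5). In NonTg parenchyma 1 the medians were 47.5 (38 paired cells, TRAV2, TRBC2), 47.5 (34, TRAV7D-4, TRBC1) and 56 (33, TRAV6D-5, TRBC2). In 5xFADTg parenchyma 1 they were 59 (71, TRAV7D-2, TRBC1), 52.5 (64, TRAV9-2, TRBC1) and 45 (38, TRAV8N-2, TRBC2). Lower medians were found in 5xFADTg parenchyma 2, with 25 (85 cells, TRAV10D, TRBC2), 29 (69, TRAV7-6, TRBC1) and 5 (60, TRAV12D-3, TRBC1), the last with a mean log2 ratio of -0.04. The 3 largest clonotypes of a meningeal library had 4 to 14 cells. Their TRA medians were 50 (TRAV10D, TRBC2), 59 (TRAV14D-1, TRBC1) and 169 (TRAV3D-3, TRBC2) in 5xFADTg meninges. In NonTg meninges they were 14.5 (TRAV7D-4, TRBC1) and 7 (TRAV8N-2, TRBC2), and the third (TRAV9D-1, TRBC1) had 1 paired cell.

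TRB counts were spread by V segment. Of 20 TRBV labels with at least 50 paired cells and cells in each library, TRBV2 was lowest, with a median of 4 UMIs (150 cells, 105 clonotypes) and a mean log2 of 1.84. TRBV15 was highest, with a median of 18 (96 cells, 78 clonotypes) and a mean log2 of 4.08. The means thus spanned 4.70-fold. TRBV2 held rank 1 or 2 from the bottom in each of the 6 libraries, TRBV15 rank 19 or 20 and TRBV17 rank 17 to 20. By library the mean log2 ran from 1.75 to 2.35 for TRBV2 and from 3.63 to 4.51 for TRBV15, so their ranges did not overlap. TRBV17 (mean log2 3.53, median 12) and TRBV16 (3.48, median 12) came next to the top, and TRBV13-2 (2.62, median 6) and TRBV5 (2.68, median 7) next to the bottom. The label TRBV13-2 alone covered 69 cells, with 1 in NonTg meninges. The joint label TRBV12-2+TRBV13-2 covered 609 cells (2.82, median 7), so the value of TRBV13-2 as a whole is not known. TRA UMIs of the same cells did not follow, with a median of 46 for TRBV2 and 48.5 for TRBV15. Counted once per clonotype, the means were 1.92 for TRBV2 and 4.05 for TRBV15. No test was made of these ranks.

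**Figure D5:**
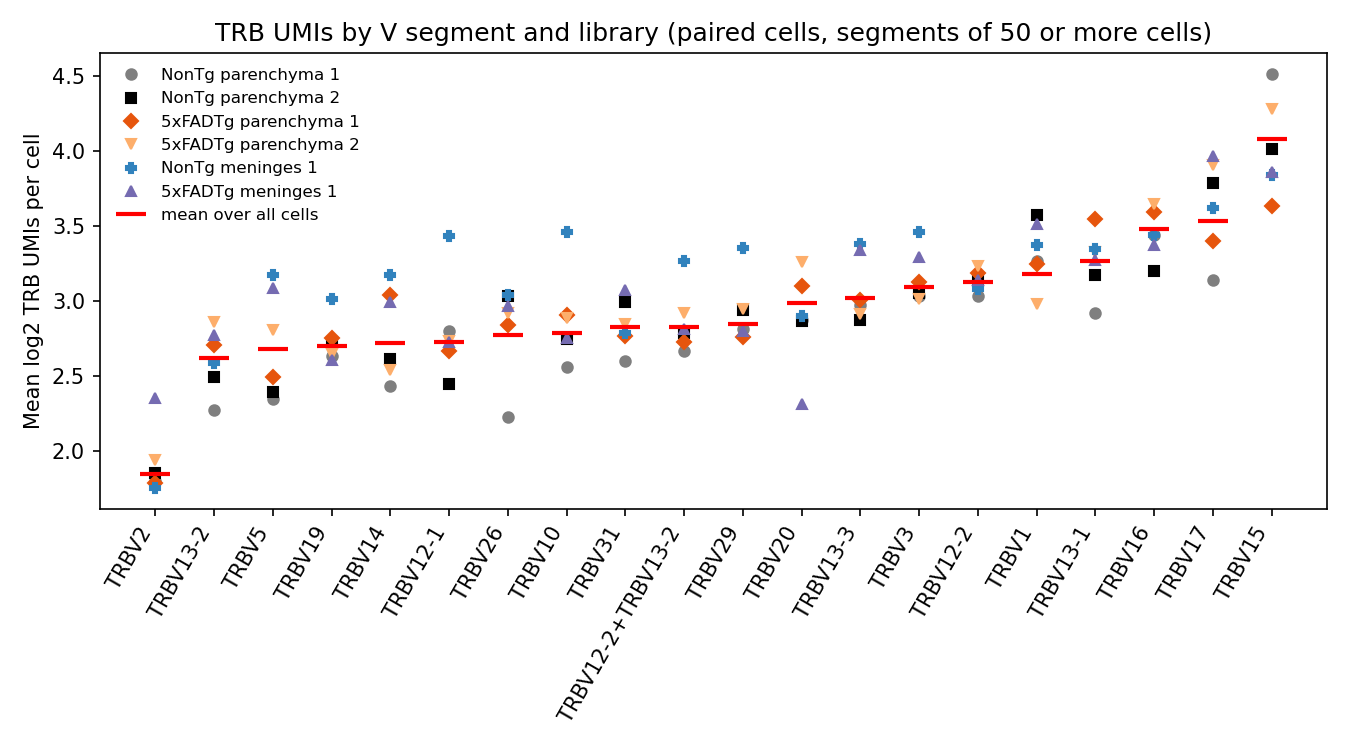
Mean log2 TRB UMIs per paired cell (y axis) for 20 TRBV labels (x axis, ordered by the mean over all cells, red bar), with 1 symbol per library. TRBV2 lies lowest (1.84) and TRBV15 highest (4.08), and the library symbols of the 2 do not overlap.

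TRA counts by V segment spanned 2.53-fold over 39 TRAV labels when libraries were weighted equally, and 2.59-fold over cells, but which labels stood at the ends depended on the weighting. With libraries weighted equally, which was chosen after seeing the data, the lowest mean log2 UMIs were those of TRAV8D-2 (4.18), TRAV7-6 (4.42) and TRAV9-2 (4.44). TRAV6-7-DV9 (4.44) stood level with the last. The highest were those of TRAV14-2 (5.53), TRAV7-4 (5.44) and TRAV14-3 (5.44). Some library means rest on few cells, as few as 1 for TRAV8D-2 and TRAV7-6 and 2 for TRAV9-2. The fewest were 5 for TRAV14-2 and 4 for TRAV7-4 and TRAV14-3. Sampling scatter in these ranks and in the span was not tested. Over cells the lowest were TRAV12D-3 (median 20 UMIs, 153 cells), TRAV10D (28, 115 cells) and TRAV7-6 (26, 96 cells), and the highest were TRAV7-4 (median 59.5 UMIs, 70 cells), TRAV14-2 (50, 59 cells) and TRAV14D-1 (56, 104 cells). These low labels took 86 of 153, 87 of 115 and 75 of 96 cells from 5xFADTg parenchyma 2, the library with the lowest TRA mean (4.37 against 4.87 to 5.21 in the others). Its large clones gave 60 cells to TRAV12D-3, 85 to TRAV10D and 69 to TRAV7-6. Counted once per clonotype, the lowest was TRAV8D-2 (4.05), followed by TRAV7D-4, and the highest were TRAV14-3 (5.59) and TRAV14-2 (5.56), while TRAV12D-3 had 4.70, TRAV10D 4.56 and TRAV7-6 4.46.

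Genotype and tissue comparisons of the counts rest on few libraries. For TRA, the NonTg parenchyma libraries had mean log2 UMIs of 4.89 and 4.96, and the 5xFADTg ones 4.87 and 4.37. For TRB the NonTg values were 2.80 and 2.88, against 2.97 in both 5xFADTg libraries. By these means the genotypes did not overlap in either chain. By medians they did: those of TRA were 48 and 58 in NonTg against 50 and 34 in 5xFADTg (exact permutation p = 0.667), and those of TRB were 8 in all 4 libraries, a difference of 0 (exact permutation p = 1). In mean log2 UMIs, 5xFADTg minus NonTg was -0.30 for TRA, 0.13 for TRB and -0.43 for their log2 ratio, each with exact permutation p = 0.333, the smallest that 2 against 2 libraries allow (adjusted 0.417). 1 library decided much of the TRA value and the ratio: without 5xFADTg parenchyma 2 they were -0.05 and -0.17. Reads per TRB UMI also separated the genotypes, with medians of 1087 and 1781 in NonTg and 1000 and 661 in 5xFADTg, and in reads the TRB difference was -0.59. The part of sequencing depth in these differences was not tested.

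By mean log2 UMIs both chains lay higher in the meninges than in the parenchyma, with no overlap between libraries. Mean log2 TRA UMIs were 5.21 and 5.04 in the meninges and 4.37 to 4.96 in the parenchyma, and mean log2 TRB UMIs 3.20 and 3.05 against 2.80 to 2.97. The differences were 0.36 for TRA and 0.22 for TRB (exact permutation p = 0.133 for each, the smallest for 2 against 4; adjusted 0.333). All tissue tests here treat libraries as independent, although meningeal and parenchymal libraries of a genotype had clones in common. The median TRA count of 5xFADTg meninges (50) equalled that of 5xFADTg parenchyma 1 and lay below that of NonTg parenchyma 2 (58), so by medians the tissues overlapped in TRA (exact permutation p = 0.4). Those of TRB stood at 9 against 8. With each clonotype counted once, the tissues overlapped in both chains (0.31 for TRA and 0.16 for TRB; exact permutation p = 0.267 for each). The ratio of the chains overlapped between the tissues (0.14, exact permutation p = 0.8), and its difference was -0.02 without 5xFADTg parenchyma 2. Reads per TRB UMI separated the tissues in the same direction, at 3289 and 2132 in the meninges against 661 to 1781 in the parenchyma, and the part of that depth in the result was not tested. TRB contigs without a constant gene made up 0.538% ± 0.0805 in 5xFADTg and 0.214% ± 0.112 in NonTg parenchyma (SD, n = 2 each; exact permutation p = 0.333), and 0.221% ± 0.0178 in the meninges against 0.376% ± 0.203 in all parenchyma (n = 2 and 4; exact permutation p = 0.533). With contigs of at least 2 UMIs the genotype difference went from 0.324 to 0.122 points and the tissue difference from -0.156 to -0.00631 points.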

How the data were processed

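Per the labels' protocols, the 6 receptor libraries used 10x Genomics' v2 immune profiling chemistry. The deposited contig tables hold raw counts, with no normalization, of reads and UMIs per contig beside its segment names, constant gene and CDR3, per the file headers. Cell Ranger 6.0 and the build mm10 are named in the submitters' processing notes. The sources used here do not give the filters applied before deposit. The 6 gene expression samples were not used here.

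Productive contigs were sorted by constant gene. UMI counts were compared as log2 values without a pseudocount, since each contig has at least 1 UMI, in paired cells (1 TRA and 1 TRB), which leaves out cells with further chains; no doublet caller was run. Differences within libraries were tested by exact sign-flip over libraries, and groups of libraries by exact permutation, all two-sided, with Benjamini-Hochberg adjustment within 8, 4, 5 and 5 comparisons (within library, expansion, genotype, tissue) and a threshold of 0.05. The tests were tried on simulated data. Intervals of shares are 95% exact binomial ones (Clopper-Pearson), and a count of 0 is given the limit of 3 counts. No test across many features was made.

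Named were the constant genes, J segments by constant gene, the 3 largest clonotypes of a library, the clones of at least 10 cells with the extreme ratios in each library, the 3 highest and 3 lowest TRAV and TRBV labels of at least 50 cells, and the 2 TRBV labels most like TRBC1. Ties in clonotype size were broken by CDR3 in alphabetical order. The members, lists and alternatives were chosen with earlier results of these data known. Alternatives were medians over cells, at least 2 UMIs, reads in place of UMIs, each clonotype once, cells in place of clonotypes, cells with 1 TRB and any number of TRA, expansion from 5 cells, the replicate number as block, and each library left out; those for J clusters, TRAV labels and iNKT-like cells were added after seeing the data. Gene positions came from GENCODE M21 (GRCm38, which mm10 names); a sequence comparison of the beta constant genes is not reported here. Analyses ran in Python 3.11.15 (numpy 2.4.6, scipy 1.17.1, pandas 2.3.3), and figures were drawn with matplotlib 3.10.9.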

Additional observations from a re-analysis of the deposited data

Results flagged for a closer look

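The log2 difference of TRA minus TRB UMIs in 5xFADTg parenchyma 2 was 1.40, far from the other 5 libraries, with its gap to the nearest taking 0.744 of the whole range. Mean log2 TRA UMIs in the same library were 4.37, standing apart from the other 3 parenchymal libraries (0.849 of the range). This library also had the fewest reads per TRB UMI, 661. The difference in TRA UMIs between cells with a TRA alone and paired cells was 1.38 in 5xFADTg meninges, apart from the other 5 libraries (0.645 of the range), and rests on 8 cells. Of 17 groups of 4 to 6 libraries examined in this way, these 3 stood out, and chance does so in about 1 of 20 independent groups. The groups share libraries and cells, and the first and second flags both rest on the TRA counts of 5xFADTg parenchyma 2. The 3 of 17 can therefore not be set against that rate.

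TRB UMIs in cells with a TRB alone, relative to paired cells, differed by 0.000871 and 0.0362 on the log2 scale in the NonTg parenchyma libraries and by -0.05 and -0.20 in the 5xFADTg ones. The genotype means were 0.141 apart, a difference that was not tested. The signs are opposite, but the value of NonTg parenchyma 1 is next to 0, and with at least 2 UMIs each of the 6 libraries had a lower value in cells with a TRB alone. Nonproductive TRB contigs with no J segment, which enter no comparison, were named TRBC1 in 17 of 18 cases.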

How the results depend on the processing

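For 26 results, 219 alternatives were computed. The 0.05 threshold is applied here to unadjusted p-values, and no result passed it after adjustment. Of the 92 that leave out no library, 77 kept direction and side of the 0.05 threshold or, for values with no test, stayed within their spread. By medians the 5xFADTg minus NonTg TRB difference was 0, with no direction left. TRBJ1 minus TRBJ2 contigs without a constant gene moved to 1.29 points with each CDR3 counted once. That count marks a CDR3 when any of its contigs lacks the gene. With reads in place of UMIs, 5 changed direction: TRA minus TRB (-1.36), TRA of cells with TRA alone (0.156), expanded minus 1-cell TRA (0.00317), 5xFADTg minus NonTg TRB (-0.592) and the ratio of meninges minus parenchyma (-0.196). The expanded minus 1-cell ratio turned to -0.0299 with medians and to -0.0950 with expansion from 5 cells, which also turned the TRBC1 share to 7.47 points. By unadjusted p, 3 alternatives passed the threshold, all at exact sign-flip p = 0.0312. With at least 2 UMIs these were TRBC1 minus TRBC2 TRB UMIs (-0.0912) and TRB of cells with TRB alone (-0.189). The last was expanded minus 1-cell TRB with each clonotype once (-0.147). The causes were not tested.

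Leaving out each library in turn gave 127 values, and no tested one could pass the threshold, because 5 libraries allow no p under 0.0625. The results that had passed with all libraries kept their direction: TRA minus TRB UMIs (1.88 to 2.01), reads per UMI (-3.37 to -3.20) and TRB without minus with a constant gene (-2.18 to -2.04). TRBJ1 minus TRBJ2 contigs without one, not tested, lay between 0.767 and 0.918 points. The direction turned in 10, within the ranges of TRBC1 minus TRBC2 TRA UMIs (-0.0909 to 0.123), TRA alone minus paired (-0.276 to 0.138), the expanded minus 1-cell ratio (-0.0710 to 0.0860), and meninges minus parenchyma in ratio (-0.0204 to 0.208) and TRBC1 share (-1.99 to 2.96 points).

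With the replicate block, which pairs parenchyma libraries by number, the 5 genotype differences kept their values (TRA -0.302, TRB 0.126, ratio -0.429, TRBC1 share 1.69 points, no constant gene 0.324 points). Each exact sign-flip p is then 0.5, the smallest 2 pairs allow. The labels name nothing that same-numbered libraries share.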

Other observations

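iNKT-like receptors (TRAV11 with TRAJ18 and the invariant CDR3 length), which mark T cells that recognise lipids on CD1d, used TRBC1 in 52.3% of 193 paired cells, against 34.8% of cells with other receptors and 24% of 25 MAIT-like cells (TRAV1 with TRAJ33). A single TRBV13-3, TRBC1 clone of 5xFADTg parenchyma 1 gave 30 of the 193 cells, and without it the share was 43.6% (71 of 163). Counted once per clonotype, the share was 44.4% of 162 iNKT-like and 33.6% of 2604 other clonotypes. Their medians were 44 TRA and 9 TRB UMIs, close to the 45 and 8 of other cells, and 33.7% had at most 16 TRA UMIs against 32.1%. These are counts of cells, which share clones, and were not tested.

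Of the clones, 6 had at least 5 paired cells in a meningeal library and in a parenchymal library of the same genotype. The TRAV8N-2, TRBC2 clone had a low TRA median in both NonTg tissues, 7 UMIs in the meninges (5 cells) and 8 in parenchyma 2 (94 cells). A TRBV29, TRBC1 clone had a median of 59 in 5xFADTg meninges (9 cells) and 56 in parenchyma 1 (37 cells). A TRBV10, TRBC2 clone had 174 in NonTg meninges (5 cells) and 47.5 in parenchyma 1 (38 cells), and the TRAV7D-4, TRBC1 clone had 14.5 (6 cells) and 47.5 (34 cells). The TRAV10D, TRBC2 clone had 50 in 5xFADTg meninges (14 cells) and 25 in parenchyma 2 (85 cells), and a TRBV12-2, TRBC1 clone had 56 (5 cells) and 55 (12 cells) in NonTg. TRB medians of these clones lay between 4 and 13 UMIs.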
